A study of Macaca mulatta with 10 samples.

Results

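The genes described here are the matrix metalloproteinases (MMP), the membrane-bound ADAM and the secreted ADAMTS metalloproteinases, and their tissue inhibitors (TIMP). They were taken by symbol, as every row named MMP, ADAM or ADAMTS with a number or *TIMP1* to *TIMP4*, which gave 59 of the 28595 genes in the files. Of these, 21 were MMP, 18 ADAM, 17 ADAMTS and 3 TIMP genes, and *TIMP3* was not analysed here. RNA-Seq of adipose tissue and skeletal muscle came from 5 male rhesus monkeys, with 1 library per animal and tissue. The hyperinsulinemic monkey (rhesus_950807 in the labels) has an extremely high insulin level and carries the heterozygous *PRKD2* K410X nonsense mutation, and the controls were the monkeys rhesus_920401, rhesus_940129, rhesus_940313 and rhesus_950509. The labels give no age and no depot or muscle, the study describes the hyperinsulinemic monkey as more obese, and with 1 such animal its genotype, its obesity and its individual differences cannot be told apart.

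MMPs are secreted or membrane-anchored zinc enzymes that cut collagens, gelatin and other matrix proteins, and most are made as inactive precursors. ADAMs shed the outer parts of membrane proteins, and ADAMTS enzymes cut proteoglycans or trim procollagens. TIMPs bind the active site of these enzymes, and TIMP2 together with the membrane enzyme MMP14 forms the complex that activates the precursor of MMP2. In adipose tissue this system remodels the matrix around growing adipocytes, and in muscle that around fibers and vessels.

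The libraries held 30669915 to 43268985 mapped reads, of which 48.2% to 64.6% lay in genes, and levels are given as RPKM, the read count of a gene scaled to its transcript length and to the mapped reads of the library. The adipose label fitted most of its markers, with *ADIPOQ* at 631 to 1491 RPKM in the 5 adipose libraries and 2.06 to 15.4 RPKM in the 5 muscle libraries, and 6 of 8 adipocyte markers called higher in control adipose tissue. *GPD1* was not called, and *FABP4* went against the label, at 0.254 to 3.44 RPKM in the adipose libraries and 27.7 to 68.7 RPKM in the muscle libraries. Control adipose libraries rhesus_920401 and rhesus_940313 stood apart by the muscle actin *ACTA1*, at 101 and 80.9 RPKM against 0.444 to 1.72 RPKM in the other adipose libraries, and results that rest on them are given with and without them. These levels were 0.350% and 0.280% of the mean *ACTA1* of control muscle.

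Of the 59 genes, 28 had a mean of at least 1 RPKM over the 5 adipose libraries and 13 over the 5 muscle libraries. A mean of at least 10 RPKM was reached by 13 genes in adipose tissue and by 3 in muscle, namely *TIMP1*, *TIMP2* and *MMP2*. Another 22 genes had reads but a mean under 1 RPKM in both tissues. No read was counted in any of the 10 libraries for *MMP1*, *MMP8* and *MMP13* (the collagenases), for *MMP20* (the enamel protease), *MMP26* or *ADAM30*, or for *ADAM2* and *ADAM7*, which belong to the male reproductive tract. A count of 3 reads, the floor used here, would correspond to 0.0262 to 0.0987 RPKM in these 8 genes, and this floor covers counting error only.

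**Figure D1:**
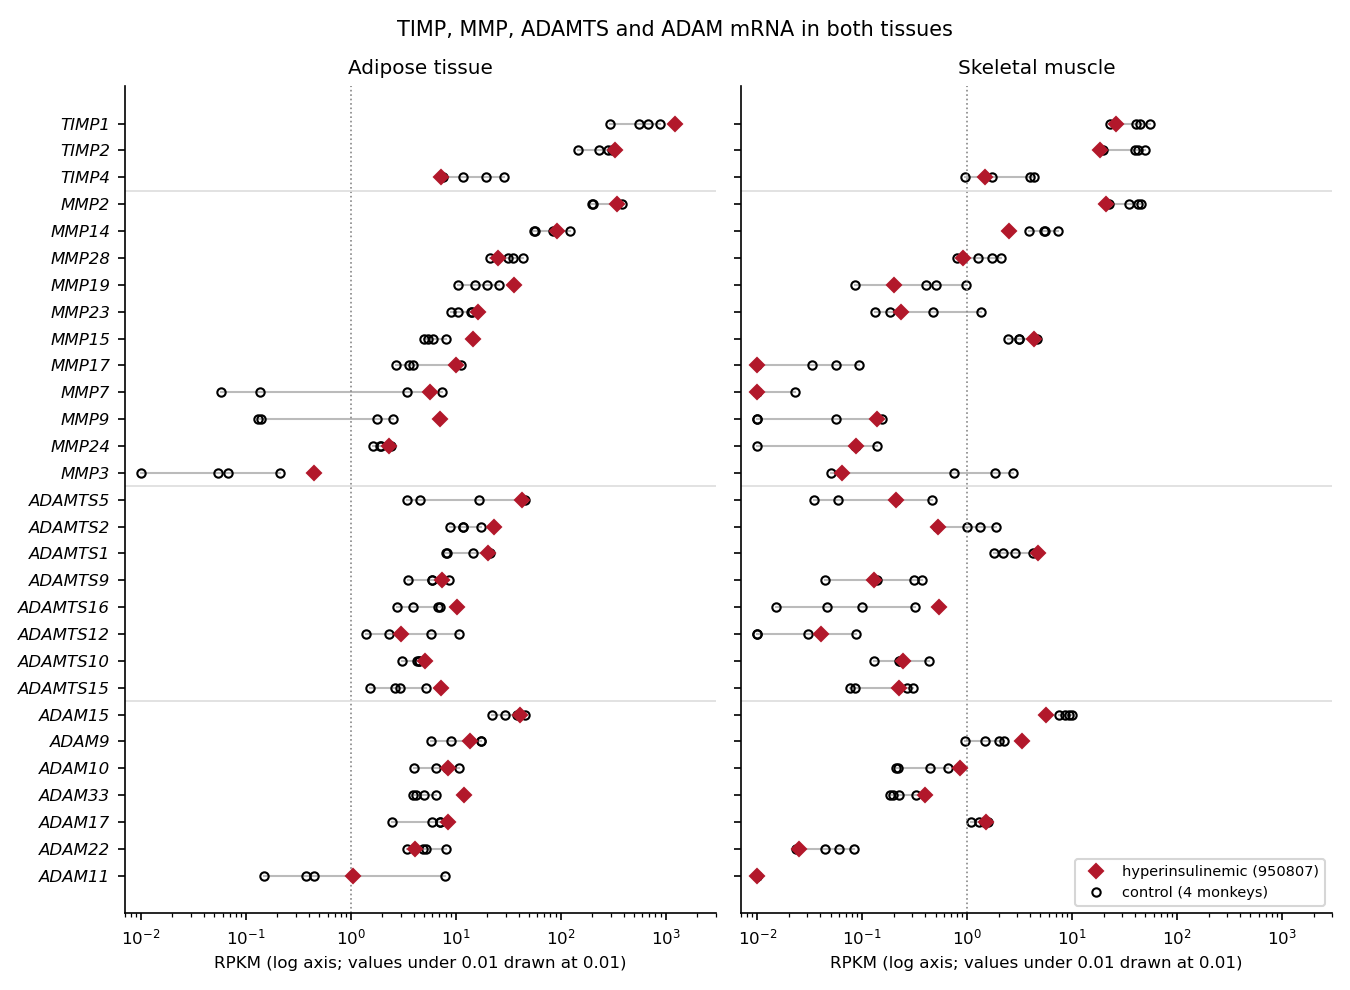
RPKM of 29 protease and inhibitor genes (log axis) in adipose tissue and in skeletal muscle, with a diamond for the hyperinsulinemic monkey and circles for the 4 controls; the dotted line marks 1 RPKM and values under 0.01 are drawn at 0.01. *TIMP1*, *TIMP2* and *MMP2* lead in both tissues, and most other genes that lie above 1 RPKM in adipose tissue lie below it in muscle.

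Both tissues shared the same 3 leading transcripts. *TIMP1*, *TIMP2* and *MMP2* together made up 81.4% of the summed RPKM of the 59 genes in adipose tissue of the hyperinsulinemic monkey, against 70.6% to 81.8% in that of the controls. In muscle they made up 67.9% in the hyperinsulinemic monkey, against 71.0% to 80.0% in the controls. The summed level was 2330 RPKM in adipose tissue of the hyperinsulinemic monkey and 1035 to 1899 RPKM in that of the controls. In muscle it was 97.4 RPKM in the hyperinsulinemic monkey and 92.4 to 185 RPKM in the controls. *TIMP1* alone took 52.4% of the sum in adipose tissue of the hyperinsulinemic monkey and 28.6% to 54.4% in that of the controls, and it took 27.2% in muscle of the hyperinsulinemic monkey and 24.1% to 33.8% in control muscle.

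*TIMP2* and *MMP2* kept a similar level to each other throughout. The ratio of *TIMP2* to *MMP2* RPKM was 0.73 to 1.15 across all 10 libraries, although both levels differed several-fold between the tissues. The ratio of *MMP2* to *MMP14*, the enzyme to its activator, was 3.10 to 4.03 in control adipose tissue and 5.82 to 7.66 in control muscle, without overlap. In the hyperinsulinemic monkey it was 3.72 in adipose tissue, within the range of the controls, and 8.48 in muscle, above it. The ratio of *TIMP1* to *TIMP2* was 3.68 in adipose tissue of the hyperinsulinemic monkey and 1.29 to 4.68 in that of the controls, and in muscle it was 1.44 in the hyperinsulinemic monkey and 0.90 to 1.37 in the controls.

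**Figure D2:**
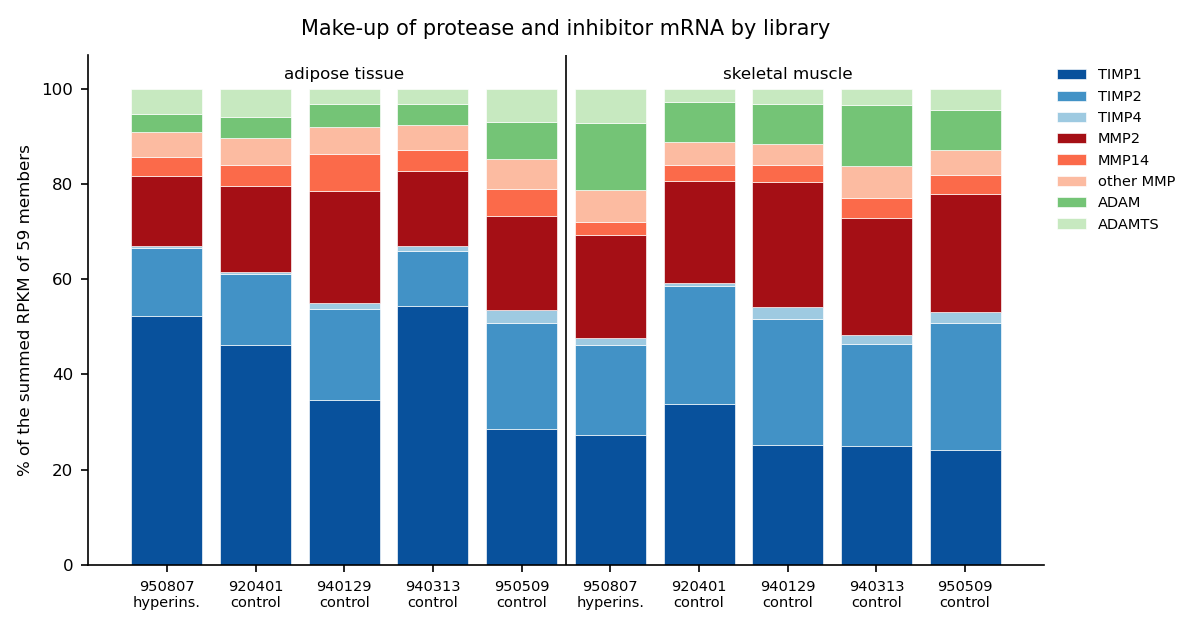
Share (%) of the summed RPKM of the 59 genes taken by *TIMP1*, *TIMP2*, *TIMP4*, *MMP2*, *MMP14*, the other MMPs, the ADAMs and the ADAMTSs in each library. *TIMP1*, *TIMP2* and *MMP2* made up 67.9% to 81.8% in every library, and the share of *TIMP1* alone ran from 24.1% to 54.4%.

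To compare the tissues, the 4 control adipose libraries were set against the 4 control muscle libraries by edgeR's quasi-likelihood test, and genes were called where the p adjusted after Benjamini-Hochberg was under 0.05 and the absolute log2 difference at least 1. Among the 11173 genes whose mean over these libraries reached 1 RPKM, 51.6% were called, 29.6% higher and 22.0% lower in adipose tissue. Of the 27 protease and inhibitor genes tested, 23 were called, all higher in adipose tissue (85.2%), and 4 were not called, namely *ADAMTS1*, *ADAM15*, *ADAM17* and *MMP15*. In RPKM the groups did not overlap for 27 of the 27, all with adipose tissue above, against 65.0% of all genes with adipose tissue above and 8.47% with muscle above. After TMM scaling, which sets the bulk of the genes level between libraries and was used in the fit, adipose tissue was above without overlap for 20 of 27, against 28.9% of all genes, with 26.7% the other way. The median log2 difference was 2.91 over these 27 genes and 0.23 over all genes tested. Since 15 of the 27 passed the filter only through their level in adipose tissue, a lower call was hardly open to them, and all 15 were called higher. Of the 12 that averaged at least 1 RPKM in control muscle as well, 8 were called higher and 0 lower, against 15.5% higher and 30.1% lower among all 8166 genes of that kind. Without the adipose libraries of rhesus_920401 and rhesus_940313, 21 of 25 genes were called, all higher, with a median of 2.68.

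The inhibitors were higher in adipose tissue. *TIMP1*, a secreted inhibitor that also acts as a growth factor, had 876, 560, 679 and 296 RPKM in adipose tissue of the controls rhesus_920401, rhesus_940129, rhesus_940313 and rhesus_950509, against 54.9, 40.6, 23.0 and 44.7 RPKM in their muscle. Its log2 difference was 2.49 (standard error 0.362, adjusted p = 0.000119), and the groups did not overlap. The gene (ENSMMUG00000011426) lies at chromosome X, 45403915 to 45407724, inside *SYN1* on the opposite strand. *SYN1* averaged 3.78 RPKM in control adipose tissue and 20.1 RPKM in control muscle, and the strand setting of the counting is not given in the sources used here, so reads of the pair may not have been kept apart.

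*TIMP2* (ENSMMUG00000005355, chromosome 16, 74111375 to 74115507) had 285, 311, 145 and 230 RPKM in control adipose tissue, against 40.2, 42.7, 19.9 and 49.6 RPKM in control muscle, a log2 difference of 1.28 (standard error 0.319, adjusted p = 0.00453). *TIMP4*, which is known from heart and adipose tissue, was far less abundant, with 7.50, 19.3, 11.8 and 28.7 RPKM in control adipose tissue and 0.96, 3.93, 1.74 and 4.30 RPKM in control muscle. Its log2 difference of 1.27 (standard error 0.510) was close to the threshold (adjusted p = 0.0461), and leaving out rhesus_940129, rhesus_940313 or rhesus_950509 ended the call, with log2 differences of 1.31, 1.23 and 1.22. In every muscle library *TIMP4* stayed below 5 RPKM. It lies inside *SYN2* on the opposite strand, which averaged 1.50 RPKM in control adipose tissue and 0.317 RPKM in control muscle.

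Among the MMPs, *MMP2* (gelatinase A, ENSMMUG00000004475, chromosome 20, 53723674 to 53750868) had 342, 382, 198 and 205 RPKM in control adipose tissue, against 34.8, 42.3, 22.6 and 45.8 RPKM in control muscle, and rose by a log2 difference of 1.56 (standard error 0.307, adjusted p = 0.000992) in adipose tissue. *MMP14* (ENSMMUG00000013665, chromosome 7, 85649073 to 85660239), the membrane-type enzyme that activates it, had 84.9, 123, 55.6 and 57.4 RPKM in control adipose tissue and 5.46, 5.52, 3.89 and 7.37 RPKM in control muscle (log2 difference 2.46, standard error 0.303). No adipose library of either gene came near the muscle range. *MMP28* (epilysin), with a mean of 32.8 ± 9.23 RPKM in control adipose tissue and 1.48 ± 0.570 RPKM in control muscle (SD, n = 4 each), and *MMP23*, with 11.95 ± 2.56 and 0.541 ± 0.573 RPKM, differed by 3.07 and 3.06 on the log2 scale.

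*MMP19*, an MMP of stromal cells and vessels, had 25.7, 20.1, 15.1 and 10.6 RPKM in control adipose tissue, against 0.98, 0.40, 0.09 and 0.50 RPKM in control muscle, a log2 difference of 3.77 (standard error 0.569). *MMP17*, a membrane-type MMP held by a lipid anchor, had 11.2, 3.56, 2.72 and 3.90 RPKM in control adipose tissue and 0.09, 0, 0.06 and 0.03 RPKM in control muscle (log2 difference 5.38, standard error 0.755). *MMP24*, another membrane-type member, averaged 1.97 ± 0.331 RPKM in control adipose tissue and 0.0782 ± 0.0579 RPKM in control muscle (SD, n = 4 each) and was called at a log2 difference of 3.23. These 3 genes had few reads in muscle and were readily counted in adipose tissue.

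*MMP15*, a further membrane-type MMP, was the exception. It had 6.12, 8.08, 5.40 and 5.00 RPKM in control adipose tissue, against 3.10, 2.44, 4.61 and 3.10 RPKM in control muscle, and its log2 difference was −0.49 (standard error 0.258, adjusted p = 0.116). The sign depended on the scaling, since scaling to the mapped totals, as RPKM does, gave 0.89. That scaling moved the median of all genes to 1.61, against 0.23 with TMM, and relative to the median *MMP15* lay at −0.71 and −0.73 under the 2 scalings. The share of higher calls among all calls moved likewise, to 89.8% with the mapped totals against 57.4% with TMM, and the median of the 27 genes lay 2.66 and 2.68 above that of all genes.

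Several of the secreted ADAMTS proteases were near 0 in muscle. *ADAMTS12*, which cuts cartilage oligomeric matrix protein, had 2.32, 5.82, 1.41 and 10.8 RPKM in control adipose tissue and 0.03, 0, 0 and 0.09 RPKM in control muscle (log2 difference 6.06, standard error 1.02, adjusted p = 0.000336). *ADAMTS5*, an aggrecan- and versican-cutting enzyme, had 45.3, 3.43, 4.61 and 16.5 RPKM in control adipose tissue, against 0.04, 0.21, 0.06 and 0.46 RPKM in control muscle, a log2 difference of 5.08 (standard error 0.950, adjusted p = 0.000710). *ADAMTS16* had 3.94, 6.85, 2.73 and 7.04 RPKM in control adipose tissue and 0.32, 0.05, 0.10 and 0.01 RPKM in control muscle, a log2 difference of 4.01 (standard error 0.719). In each of the 3 genes the lowest adipose library was above the highest muscle library.

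*ADAMTS1*, which also cuts versican and aggrecan, lies next to *ADAMTS5* on chromosome 3 (19698422 to 19830686 for the pair). It was also higher in adipose tissue in RPKM, without overlap, but the groups overlapped after TMM scaling and it was not called. Its levels were 21.1, 8.02, 8.28 and 14.7 RPKM in control adipose tissue and 2.21, 2.85, 1.79 and 4.23 RPKM in control muscle, with a log2 difference of 0.83 (standard error 0.343, adjusted p = 0.0526). The call changed without rhesus_950509, where the difference was 1.05. *ADAMTS9*, *ADAMTS10* and *ADAMTS15* were called at log2 differences of 3.42, 2.61 and 2.68. *ADAMTS2*, which removes the amino-terminal propeptide of fibrillar procollagens, had 17.5, 11.6, 11.8 and 8.91 RPKM in control adipose tissue and 1.34, 1.01, 0.52 and 1.89 RPKM in control muscle, a log2 difference of 1.99 (standard error 0.367).

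The ADAMs fell into strongly and weakly differing members. *ADAM22*, a catalytically inactive member known as a neuronal receptor, had 5.24, 4.87, 3.40 and 8.15 RPKM in control adipose tissue, against 0.04, 0.08, 0.06 and 0.02 RPKM in control muscle, where the 4 libraries held 19 reads in all (log2 difference 5.28, standard error 0.488, adjusted p = 4.1e-06). *ADAM33*, an ADAM of mesenchymal cells, and *ADAM10*, the sheddase of Notch, were called at log2 differences of 2.99 and 2.91. *ADAM9* was called at 1.50 (standard error 0.374). *ADAM15*, with 38.6, 45.3, 22.3 and 29.7 RPKM in control adipose tissue and 9.38, 8.61, 7.49 and 9.99 RPKM in control muscle, was not called at 0.54 (standard error 0.228, adjusted p = 0.0560). *ADAM17*, the enzyme that releases tumor necrosis factor, was not called either at 0.68 (standard error 0.345, adjusted p = 0.104), with a mean of 5.62 ± 2.17 RPKM in control adipose tissue and 1.35 ± 0.203 RPKM in control muscle (SD, n = 4 each). One end of *ADAM17* (chromosome 13, 9582679 to 9614783) overlaps that of *IAH1* (9568956 to 9582715) on the opposite strand, which was at 28.9 and 34.0 RPKM in these tissues.

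*ADAM11*, another inactive ADAM of nerve cells, had no read in any muscle library. It had 0.38, 7.91, 0.15 and 0.45 RPKM in control adipose tissue, so that its mean rests on rhesus_940129. The 4 control adipose libraries held 634 reads, of which 553 were in rhesus_940129. Against a floor of 3 reads over the 4 control muscle libraries, the pooled ratio scaled to mapped reads was at least 231. This bound covers counting error only and not the spread between animals. Without rhesus_940129 *ADAM11* no longer passed the filter. *MMP7* (matrilysin) had 7.34, 0.06, 3.46 and 0.14 RPKM in control adipose tissue and 0.02, 0, 0 and 0 RPKM in control muscle, or 424 reads against 1 read, a depth-scaled ratio of 463 (95% exact counting interval 82.6 to 18314). This interval also leaves out the spread between animals, and 267 of the reads were in rhesus_920401 and 149 in rhesus_940313. For *MMP7* edgeR gave a log2 difference of 7.08 (95% interval 3.19 to 10.98, adjusted p = 0.00473), and without rhesus_920401 it did not pass the filter.

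**Figure D3:**
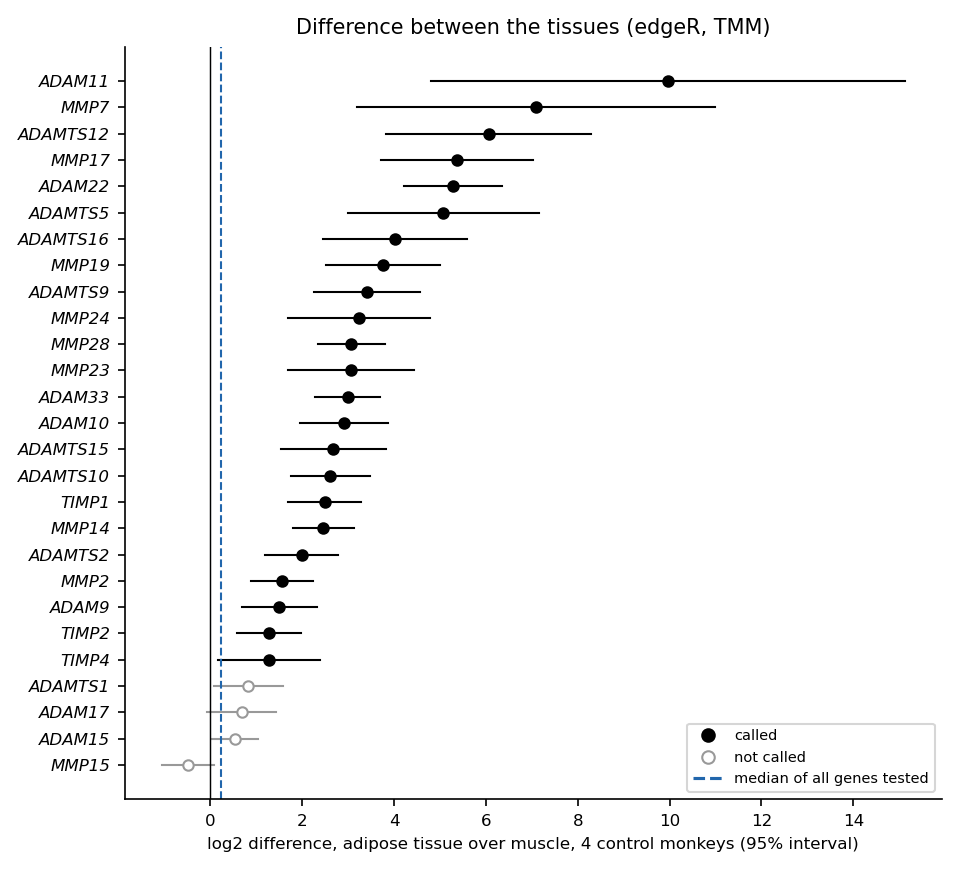
Log2 difference between control adipose tissue and control muscle (4 libraries each) for the 27 genes tested, as points with 95% intervals (edgeR, TMM scaling); filled points are called, open points are not, and the dashed line is the median of all genes tested, 0.23. The 23 called genes lie from 1.27 (*TIMP4*) upward, *MMP15* alone lies below 0 and changes sign when scaled to the mapped totals, and the fitted value of *ADAM11*, which has no read in muscle, is not a measured size.

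*MMP3* (stromelysin) ran the other way. It had 0.07, 0.05, 0 and 0.21 RPKM in control adipose tissue, against 0.76, 2.73, 0.05 and 1.86 RPKM in control muscle, with 22 and 357 reads in all. It missed the filter on the mean of the control libraries, and the fit without a filter called it lower in adipose tissue at a log2 difference of −5.36 (standard error 1.06, adjusted p = 0.000536). The ranges overlapped, because the muscle library of rhesus_940313 had 4 reads. That fit also called *ADAM19* (−1.32) and *ADAM23* (−1.85) lower in adipose tissue, which reached at most 1.15 and 0.463 RPKM in any control library, and 7 more genes higher, so that 33 of 51 genes were called. In RPKM *ADAM19* was not lower, at 0.815 ± 0.255 RPKM in control adipose tissue and 0.746 ± 0.273 RPKM in control muscle (SD, n = 4 each), so its direction rests on the scaling.

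*MMP3* and *MMP7* belong to the MMP cluster on chromosome 14, at 101110166 to 101567741 (458 kb, counted from 1 in the unnamed build of the files), which holds 8 of the genes described. In the controls *MMP7* was counted in adipose tissue and *MMP3* mainly in muscle. In the hyperinsulinemic monkey *MMP3* had 0.45 RPKM (34 reads) in adipose tissue, above all adipose libraries of the controls, and 0.06 RPKM (4 reads) in muscle. *MMP12* reached at most 0.62 RPKM and *MMP27* at most 1.34 RPKM, both in the adipose library of rhesus_950509. No read was counted for *MMP1*, *MMP8*, *MMP13* and *MMP20* of the same cluster.

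The tissues also differ in their cells, and in whole tissue fewer cells of a type and less RNA per cell cannot be told apart. Control muscle had 12.9% of the mean RPKM of control adipose tissue for *MMP2*, 15.7% for *TIMP2*, 6.78% for *TIMP1* and 6.93% for *MMP14*. For comparison, the summed RPKM of 7 fibroblast and stroma markers was 1466 to 2651 in control adipose tissue and 166 to 241 in control muscle (11.1% of the mean). Single markers of this list differed, with *DCN*, the most abundant, at 13.7% and *PDGFRA* at 28.6%. *LUM* averaged 114 RPKM in control adipose tissue and 4.68 RPKM in control muscle. For 6 macrophage markers the sums were 146 to 470 and 11.3 to 36.6 (7.32%), and for 5 endothelial markers 104 to 157 and 24.4 to 35.2 (21.2%). The sum of 4 mesothelial markers was 62.5 to 201 RPKM in control adipose tissue and 0 to 0.0170 RPKM in control muscle, with *MSLN* and *CALB2* at 0 in all muscle libraries. These percents are in RPKM, and with such scaling the median of all genes was itself 1.61 higher in adipose tissue on the log2 scale. The part of these cells in the differences was not tested.

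Of the genes that work beside these proteases, some lists were mostly higher in adipose tissue, beside 29.6% of all genes called higher and 22.0% lower. These were the other inhibitors, convertases, other matrix proteases, substrates and ADAMTS-like genes. The plasminogen system and the regulators of ADAMs, given further below, were not mostly higher. Of 3 other inhibitors tested, 3 were higher in adipose tissue, namely *RECK* (log2 difference 3.16), a membrane-anchored MMP inhibitor, *PAPLN* (2.81), which inhibits ADAMTS enzymes, and *PZP* (1.63), a broad protease trap. Of 3 proprotein convertases, which cut off the propeptides of many of these enzymes, 2 were higher, *PCSK5* at 4.37 and *PCSK6* at 1.03, and 1 was not called. Of 6 other matrix proteases 4 were higher, among them the cathepsin gene *CTSS* (adjusted p = 8.2e-05), *MME* (adjusted p = 0.000718) and *BMP1* at 1.63, and 2 were not called. Of 5 collagen and proteoglycan substrates 4 were higher, led by *COL3A1* at 1.95 and *COL1A1* at 1.94, and 1 was not called. Of 3 ADAMTS-like genes, 2 were higher, *ADAMTSL3* at 2.87 and *ADAMTSL4* at 1.08, and 1 was not called. Of the examples named, *RECK*, *PAPLN*, *PCSK5*, *CTSS*, *MME* and *ADAMTSL3* averaged under 1 RPKM in control muscle. A lower call was hardly open to them, and of all genes under 1 RPKM there 68% were called higher and 0% lower.

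Of 5 genes of the plasminogen system tested, 1 was lower in adipose tissue and 4 were not called, with a median log2 difference of 0.71. *PLAU* (0.82, adjusted p = 0.0275) and *PLAT* (0.71, adjusted p = 0.0246), the activators of plasminogen, missed the call by the size of their difference alone. The lower gene was *SERPINE2*, an inhibitor of thrombin and plasminogen activators, at −1.95 (standard error 0.284). The tetraspanins, iRhoms and *FRMD8*, listed as regulators of ADAM10 and ADAM17, were split, with 3 of 8 higher, 3 lower and 2 not called. Over all genes the shares were 29.6% higher and 22.0% lower. *TSPAN5* (2.22) and *TSPAN14* (1.37) were higher and *TSPAN17* (−2.92) was lower in adipose tissue. A lower call was hardly open to *TSPAN5*, which averaged 0.184 RPKM in control muscle. The other two lower genes were nearly level in RPKM, where *RHBDF2* averaged 1.82 in control adipose tissue and 1.63 in control muscle, and *TSPAN33* 3.19 and 3.46. *TSPAN17* and *SERPINE2* were lower in adipose tissue in RPKM too, at 5.18 and 17.6 RPKM on average against 14.8 and 25.9 RPKM in control muscle.

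The second comparison set the hyperinsulinemic monkey against the 4 controls within each tissue. With 1 animal against 4 an exact permutation test cannot go below p = 0.2, and the edgeR fits assume that this animal varies like the controls. In adipose tissue, 0 of 28 genes were called, 2 had an unadjusted p under 0.05, both higher in the hyperinsulinemic monkey, and DESeq2 and limma also called 0. Of all 11981 genes tested 0 were called by edgeR (0%), and 2.39% had an unadjusted p under 0.05, 1.14% higher and 1.25% lower. In RPKM the animal lay above all 4 controls for 12 of the 28 genes and below all 4 for 1, *TIMP4*, against 27.9% and 7.80% of all genes. After TMM scaling, the hyperinsulinemic monkey lay above all 4 controls for 9 genes (32.1%, against 15.7% of all genes) and below all 4 for 3 (10.7%, against 14.3%). The median log2 difference was 0.26 for the 28 genes and −0.06 for all genes.

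*ADAM33* had the smallest p. It had 11.9 RPKM in adipose tissue of the hyperinsulinemic monkey, against 6.52, 5.00, 4.15 and 3.90 RPKM in the controls, a log2 difference of 1.10 (standard error 0.413, edgeR unadjusted p = 0.0239, adjusted p = 0.9999). *MMP15* had 14.7 RPKM in the hyperinsulinemic monkey, against 6.12, 8.08, 5.40 and 5.00 RPKM in the controls, a log2 difference of 1.05 (standard error 0.414, edgeR unadjusted p = 0.0294). *ADAMTS15* had 7.17 RPKM, against 5.17, 2.66, 1.52 and 2.94 RPKM in the controls (log2 difference 1.06, standard error 0.533). The hyperinsulinemic monkey was above every control for all 3.

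*TIMP1* had 1220 RPKM in adipose tissue of the hyperinsulinemic monkey, against 876, 560, 679 and 296 RPKM in the controls. Its log2 difference of 0.83 had a 95% interval of −0.37 to 2.02. *TIMP2* had 331 RPKM, against 285, 311, 145 and 230 RPKM in the controls, and its interval was −0.83 to 1.35. *TIMP4* ran the other way, with 7.19 RPKM in the hyperinsulinemic monkey and 7.50, 19.3, 11.8 and 28.7 RPKM in the controls, a log2 difference of −1.43 (standard error 0.724, 95% interval −3.04 to 0.18). It was one of the 3 genes below all controls after scaling, with *MMP28* and *ADAM22*. For *MMP2* and *MMP14* the hyperinsulinemic monkey lay within the controls, at 344 and 92.5 RPKM, with intervals of −1.05 to 1.24 and −1.17 to 1.18.

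Further genes above all controls after scaling were *MMP19* (35.5 RPKM in the hyperinsulinemic monkey, 10.6 to 25.7 in the controls), *ADAMTS2* (23.3, against 8.91 to 17.5), *ADAMTS16* (10.3, against 2.73 to 7.04), *ADAM17* (8.42, against 2.45 to 7.03) and *MMP9*. Their adjusted p was 0.9999 in each case. Among marker lists measured beside them, the macrophage sum was 616 RPKM in adipose tissue of the hyperinsulinemic monkey, against 470, 319, 257 and 146 RPKM in the controls, and the fibroblast sum was 2906 RPKM, against 2651, 1654, 1466 and 1690 RPKM. The endothelial sum was 189 RPKM, against 104 to 157 RPKM, and the adipocyte sum was 5251 RPKM, within the 3154 to 7711 RPKM of the controls. The part of these cell types was not tested.

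**Figure D4:**
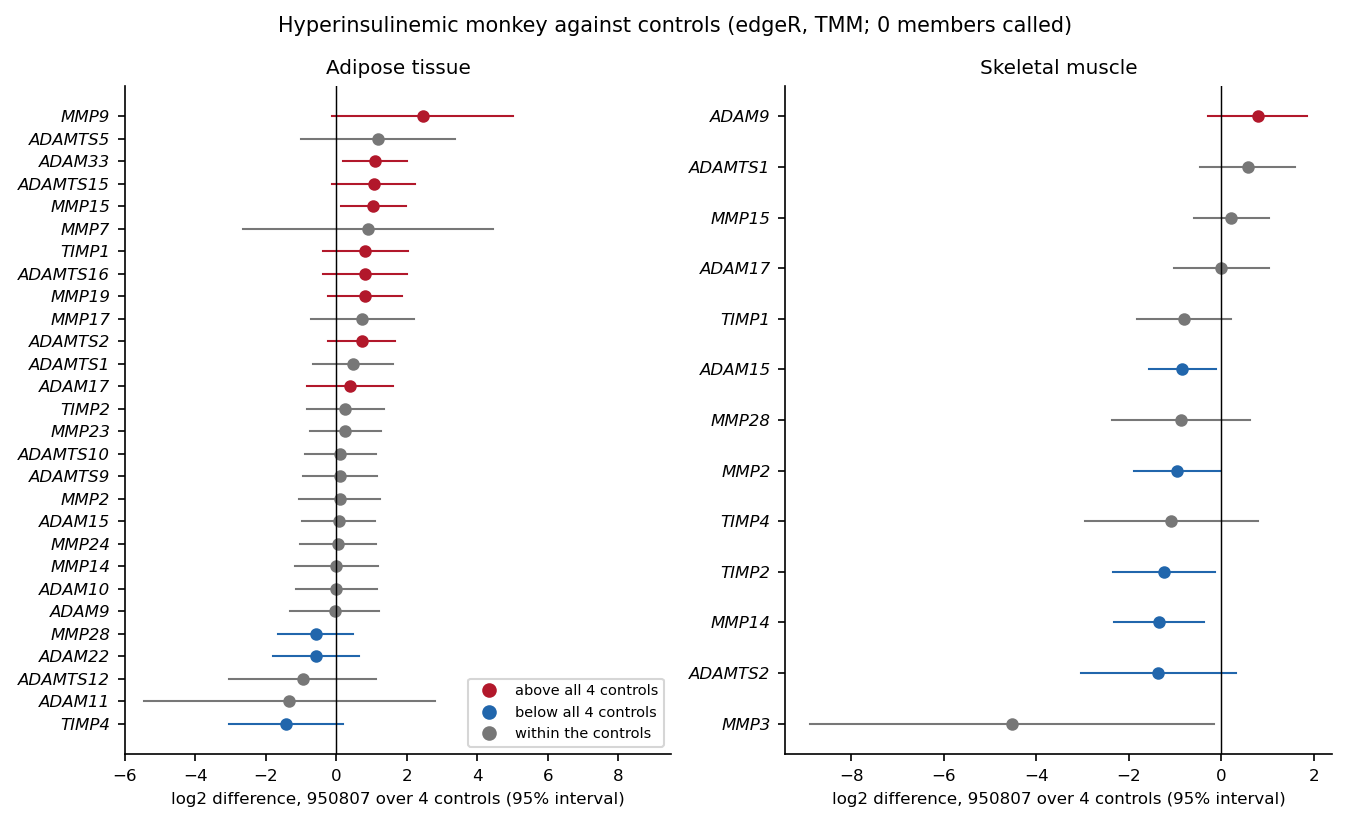
Log2 difference between the hyperinsulinemic monkey and the 4 controls with its 95% interval (edgeR, TMM scaling), in adipose tissue (28 genes) and in muscle (13 genes); red and blue mark genes for which the animal lies above or below all 4 controls after TMM scaling. No gene was called in either tissue, 9 are above and 3 below all controls in adipose tissue, and 1 is above and 5 are below in muscle.

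*MMP7* and *MMP9* split the control adipose libraries. *MMP9* (gelatinase B, made by neutrophils and macrophages) had 7.05 RPKM in the hyperinsulinemic monkey, against 2.52, 0.14, 1.79 and 0.13 RPKM in the controls rhesus_920401, rhesus_940129, rhesus_940313 and rhesus_950509, a log2 difference of 2.44 (standard error 1.15, edgeR unadjusted p = 0.0599). *MMP7*, an epithelial MMP, had 5.67 RPKM in the hyperinsulinemic monkey and 7.34, 0.06, 3.46 and 0.14 RPKM in the controls (log2 difference 0.89, standard error 1.59). Both were high in controls rhesus_920401 and rhesus_940313, which are the adipose libraries that stood apart by *ACTA1*, and low in the other 2, with 2 to 12 reads. Leaving out rhesus_920401 and rhesus_940313 removes the high control values of both genes, so a higher call there was nearly fixed in advance. Without those 2 libraries, the hyperinsulinemic monkey was called higher for *MMP9* (log2 difference 5.48, adjusted p = 0.000739) and for *MMP7* (5.60, adjusted p = 0.00923). In every other setting the adjusted p was above the threshold for both, up to 0.9999, and only 2 controls were left in this one.

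The sum of the neutrophil list had the same split, at 45.2 RPKM in the hyperinsulinemic monkey and 38.5, 8.96, 48.7 and 6.54 RPKM in the controls. Most of it was *S100A9*, at 30.2 RPKM in the hyperinsulinemic monkey and 33.7, 7.53, 47.0 and 4.89 RPKM in the controls. *CSF3R* had 1.25, 0.423, 0.398 and 0.651 RPKM in the controls and *LTF* 0.409, 0.573, 0.134 and 0.207 RPKM, neither with this split. The granule genes *MPO* and *ELANE* stayed at 0.0572 to 0.606 RPKM in all adipose libraries, also without it. Another granule gene, *CAMP*, had 12.8 RPKM in the hyperinsulinemic monkey, against 2.32, 0, 0.998 and 0.529 RPKM in the controls (log2 difference 3.57, edgeR unadjusted p = 0.0108, adjusted p = 0.9999). *MARCO*, a macrophage scavenger receptor, had 6.39 RPKM in the hyperinsulinemic monkey, against 4.499, 2.21, 11.2 and 0.144 RPKM in the controls. The other macrophage markers did not split this way. Among them, *CD68* had 114, 43.7, 29.4 and 17.5 RPKM in the controls and *CD163* had 23.0, 11.2, 14.4 and 14.5 RPKM. Mesothelial markers had a sum of 164 RPKM in the hyperinsulinemic monkey and 120, 201, 132 and 62.5 RPKM in the controls, a different order. The muscle libraries held 0 to 0.02 RPKM of *MMP7* and 0 to 0.15 RPKM of *MMP9*. The part of immune cells was not tested.

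*ADAMTS5* also varied widely, with 43.0 RPKM in the hyperinsulinemic monkey and 45.3, 3.43, 4.61 and 16.5 RPKM in the controls, a log2 difference of 1.18 (standard error 0.980). Among the 28 genes the widest spread between control adipose libraries, as the highest over the lowest RPKM, was 126 for *MMP7*, 53.4 for *ADAM11*, 19.2 for *MMP9*, 13.2 for *ADAMTS5*, 7.67 for *ADAMTS12* and 4.13 for *MMP17*. The high library was rhesus_920401 for *MMP7*, *MMP9*, *ADAMTS5* and *MMP17*, rhesus_940129 for *ADAM11* and rhesus_950509 for *ADAMTS12*.

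**Figure D5:**
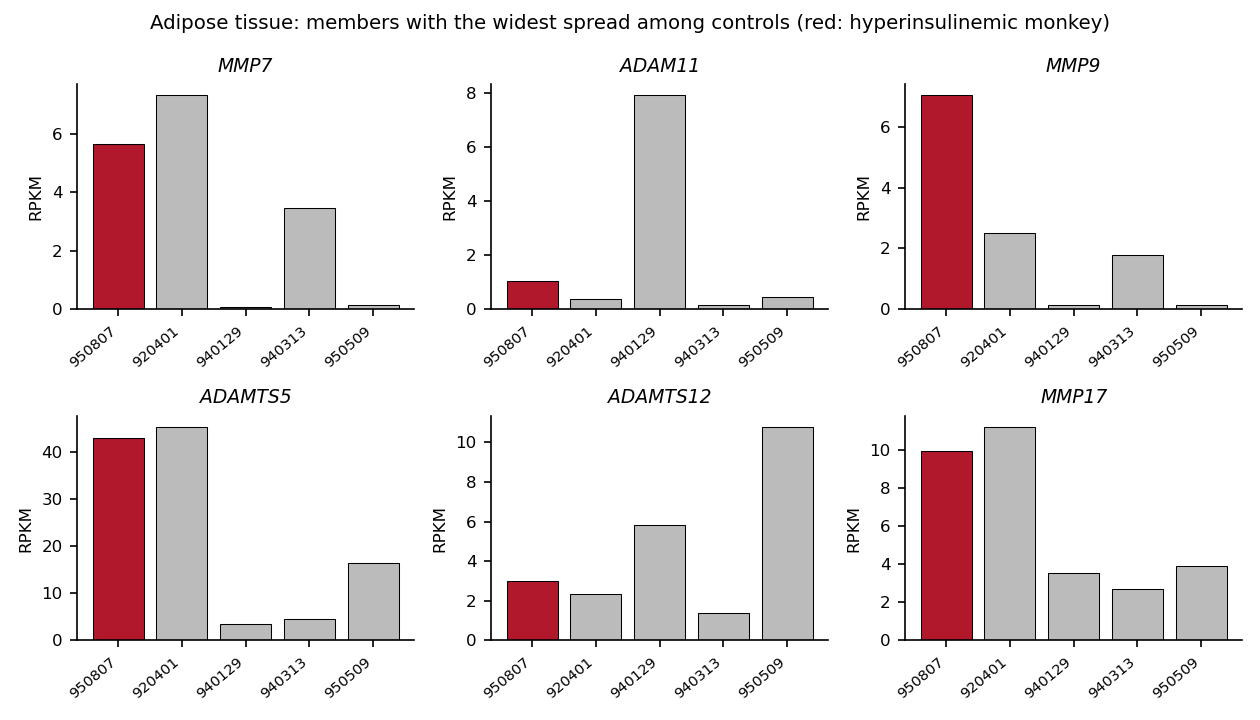
RPKM in the 5 adipose libraries (linear axes from 0) of the 6 genes with the widest spread among controls, with the hyperinsulinemic monkey in red and controls in gray. *MMP7* and *MMP9* are high in the hyperinsulinemic monkey, rhesus_920401 and rhesus_940313 and near 0 in rhesus_940129 and rhesus_950509, while *ADAM11* is high in rhesus_940129 alone, at 7.91 RPKM.

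In skeletal muscle, 13 genes passed the filter and 0 were called by edgeR, DESeq2 or limma. Of the 13, 5 had an unadjusted p under 0.05, all lower in the hyperinsulinemic monkey (38.5%), against 9.08% of all 8306 genes, 5.29% lower and 3.79% higher. Of all genes 0 were called by edgeR (0%). *MMP3*, among the 5 lower genes, passed the filter only through the controls, at 1.35 RPKM on average against 0.0648 RPKM in the hyperinsulinemic monkey. A higher result was hardly open to it. *ADAMTS2*, named below, likewise passed through the controls, at 1.19 RPKM on average against 0.529 RPKM. In RPKM the animal lay below all controls for 4 of the 13 genes and above all for 2, against 15.2% and 34.9% of all genes. The median log2 difference was −0.88 for the 13 genes and −0.03 for all genes. This gap depended on the filter. With a mean of at least 10 reads the medians were −0.25 for 29 genes and −0.04 for all genes. Without a filter they were −0.14 for 44 genes and −0.13 for all genes. With a filter of 5 RPKM they were −0.90 for 4 genes and −0.02 for all genes. After TMM scaling, the hyperinsulinemic monkey lay below all controls for 5 genes, *MMP2*, *MMP14*, *TIMP2*, *ADAM15* and *ADAMTS2* (38.5%, against 23.8% of all genes), and above all controls for 1, *ADAM9* (7.69%, against 24.3%).

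For the genes of the MMP2 activation complex the muscle of the hyperinsulinemic monkey lay below all controls, and none was called. *MMP14* had 2.50 RPKM in the hyperinsulinemic monkey, against 5.46, 5.52, 3.89 and 7.37 RPKM in the controls, a log2 difference of −1.34 (standard error 0.432, edgeR unadjusted p = 0.0118, adjusted p = 0.482). *TIMP2* had 18.4 RPKM, against 40.2, 42.7, 19.9 and 49.6 RPKM in the controls, a log2 difference of −1.24 (standard error 0.487, edgeR unadjusted p = 0.0304). *MMP2* had 21.2 RPKM, against 34.8, 42.3, 22.6 and 45.8 RPKM in the controls, a log2 difference of −0.97 (standard error 0.415, edgeR unadjusted p = 0.0437). For *TIMP2* and *MMP2* the hyperinsulinemic monkey lay just under rhesus_940313.

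*ADAM15* had 5.59 RPKM in muscle of the hyperinsulinemic monkey, against 9.38, 8.61, 7.49 and 9.99 RPKM in the controls, a log2 difference of −0.84 (standard error 0.323, edgeR unadjusted p = 0.0269). *MMP3* had 0.06 RPKM in the hyperinsulinemic monkey, from 4 reads, and 0.76, 2.73, 0.05 and 1.86 RPKM in the controls, and its difference of −4.52 (standard error 1.94) rests on 3 of the 4 controls, since rhesus_940313 was as low. *TIMP1* had 26.5 RPKM, against 54.9, 40.6, 23.0 and 44.7 RPKM in the controls, and *TIMP4* had 1.47 RPKM, against 0.96, 3.93, 1.74 and 4.30 RPKM, both within the controls, with 95% intervals of −1.82 to 0.21 and −2.95 to 0.79. *ADAM9* was above all controls, at 3.30 RPKM against 1.49, 2.03, 0.96 and 2.23 RPKM, with a log2 difference of 0.79 (standard error 0.475).

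Beside these values, the fibroblast sum was 168 RPKM in muscle of the hyperinsulinemic monkey and 166 to 241 RPKM in the controls, with rhesus_940313 the lowest. The macrophage sum was 8.76 RPKM, below the 11.3 to 36.6 RPKM of the controls, and the endothelial sum was 28.9 RPKM, within 24.4 to 35.2 RPKM. Of 7 smooth muscle and pericyte markers, 4 had an unadjusted p under 0.05 by edgeR, against 9.08% of all genes, and the median log2 difference of the 7 was −1.19. In RPKM *ACTA2*, *MYH11*, *CNN1* and *TAGLN* were below all controls, while *RGS5*, *PDGFRB* and *DES* lay within them. The part of these cell types was not tested. Among the related genes, *ADAMTSL4* and *ADAMTSL5*, which are built like ADAMTS enzymes but lack the protease part, were also below all controls in muscle, at 1.41 RPKM against 1.68 to 5.42 RPKM and at 0.569 RPKM against 1.09 to 4.03 RPKM. Neither was called by edgeR (log2 differences −1.66 and −2.60).

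The difference between the tissues in the effect of the hyperinsulinemic monkey was tested by an interaction term over all 10 libraries. Of the 12 genes tested 0 were called by edgeR, DESeq2 or limma, and 4 had an unadjusted p under 0.05 (33.3%), all with the higher effect in adipose tissue. Of all 7938 genes 0 were called by edgeR (0%), and 5.35% had an unadjusted p under 0.05, 3.88% with the higher and 1.47% with the lower effect in adipose tissue. *ADAMTS2* had the smallest p, with an effect in adipose tissue 2.12 above that in muscle on the log2 scale (standard error 0.803, edgeR unadjusted p = 0.0204, adjusted p = 0.905). In muscle it had 0.53 RPKM in the hyperinsulinemic monkey and 1.34, 1.01, 0.52 and 1.89 RPKM in the controls, while in adipose tissue it lay above all controls. The other 3 were *TIMP1* (1.68), *TIMP2* (1.55) and *MMP14* (1.41), with adjusted p of 0.905 each. *MMP2* differed by 1.12 (95% interval −0.31 to 2.55) and *ADAM15* by 0.97. For *TIMP4* the value was −0.31 (95% interval −2.69 to 2.07).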

How the data were processed

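Poly(A) RNA of 5 monkeys was sequenced in strand-specific libraries. Per the paper reads were mapped with Tophat and only uniquely mapped reads were kept. The processing notes name TopHat 1.2.0, another release than the paper. The tool, the strand setting and the genome build used for counting are not given in the sources. The deposited files hold raw read counts per Ensembl gene, which the authors divided by transcript length and mapped reads to give RPKM, and this was checked to hold for every gene. Gene starts were converted to count from 1. Symbols were found for 15556 genes (54.4%).

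Counts were tested with edgeR 4.0.16 (R 4.3.3) by quasi-likelihood with TMM scaling, over genes that averaged 1 RPKM or more across the compared libraries, and called at an adjusted p under 0.05 (between tissues also an absolute log2 difference of at least 1). Standard errors were derived from the F statistic. The tissues were compared within the 4 controls without a block, although they come from the same animals by their titles. The deviations of the 2 tissues of an animal from the control means correlated by 0.13, −0.20, 0.08 and 0.20 over 11270 genes. Pairs of tissues from different animals gave −0.23 to 0.24, so the same-animal pairs did not stand out. Alternatives were DESeq2 1.42.0, limma 3.58.1 on log2(RPKM + 1) and log2(RPKM + 0.1), other filters and scalings, the animal as a block, and leaving out libraries. Fits were tested on simulated data.

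The genes and the gene and marker lists were chosen with earlier results of these data known. Given in every library were the TIMP genes, the 8 called genes with the largest tissue difference, the 3 most abundant in each tissue and the 5 with the smallest p in each comparison of the hyperinsulinemic monkey, and other members named were added after their values were seen. No sequence was used here.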

Additional observations from a re-analysis of the deposited data

Results flagged for a closer look

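In 41 groups of 4 control libraries, 3 genes had a library far from the other 3 by Dixon's criterion, where chance flags about 1 in 20 groups. *ADAM11* had 7.91 RPKM in adipose tissue of rhesus_940129, against 0.148 to 0.446 RPKM in the other controls. *MMP17* had 11.2 RPKM in adipose tissue of rhesus_920401, against 2.72 to 3.90 RPKM. *ADAMTS10* had 3.06 RPKM in adipose tissue of rhesus_950509, against 4.28 to 4.46 RPKM.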

How the results depend on the processing

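Between the tissues, 365 values kept their direction and their call, 11 gained a call, 6 lost one and 3 reversed. The reversals were *MMP15*, at 0.89 scaled to mapped totals, 0.73 with limma on log2(RPKM + 1) and 0.89 on log2(RPKM + 0.1). *ADAM15*, *ADAM17* and *ADAMTS1* were called under these 3 settings, and *ADAMTS1* also with a filter of 5 RPKM. *ADAM11* was not called by limma on log2(RPKM + 1) and got no adjusted p from DESeq2, and *TIMP4* lost its call with a filter of 10 reads (1.204) and median-of-ratios scaling (1.19). A filter of 5 RPKM left 13 of the genes described to test, of which 12 were called, against 23 of 27, and it called 3325 of all genes, against 5767. It took away calls only through the 12 genes it no longer tested. Leaving out each control gave 21 to 23 and 5063 to 6085.

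With the animal as a replicate block, 23 genes were called between tissues, none lost or gained, with 5712 of all genes, and 0 for the interaction. The same-animal pairing changed no other call.

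In adipose tissue of the hyperinsulinemic monkey, 163 values of 12 of the genes named in that comparison kept their side of the threshold. Among those named, *ADAM17*, *MMP28*, *ADAM22*, *MMP2* and *MMP14* were outside this count. The 2 genes *MMP7* and *MMP9* were called without control libraries rhesus_920401 and rhesus_940313, the controls in which both were high. Of all genes, that setting called 33, DESeq2 11, and leaving out each control 0 to 6 (6 without rhesus_920401). In muscle all 108 values of the 9 genes named kept their side, while of all genes no filter called 10, median-of-ratios scaling 1, mapped totals 3, DESeq2 88, both limma fits 1 each, and leaving out each control 0 to 14 (14 without rhesus_940313). For the interaction all 93 values of the 7 genes named kept their side, and DESeq2 called 16 of all genes. The causes were not tested. Among the other genes tested, differences that were not called changed sign over the settings for *ADAM11* (−2.25 to 0.43), *MMP2* (−0.02 to 0.35), *MMP14* (−0.19 to 0.32), *ADAM9*, *ADAM10*, *ADAM15*, *ADAMTS9* and *MMP24* in adipose tissue, for *ADAM17* in muscle and for *ADAMTS1* in the interaction.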

Other observations

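Among the related genes, *PLAT*, which encodes tissue plasminogen activator, lay on opposite sides of the controls in the 2 tissues. It had 42.8 RPKM in adipose tissue of the hyperinsulinemic monkey, against 20.6, 18.6, 16.3 and 11.9 RPKM in the controls rhesus_920401, rhesus_940129, rhesus_940313 and rhesus_950509, and in muscle it had 1.56 RPKM, against 4.86, 3.04, 4.27 and 3.53 RPKM. The animal was thus outside the controls in both tissues, and the difference between the tissues was 2.72 on the log2 scale (standard error 0.539, edgeR unadjusted p = 0.000237), with an adjusted p of 0.471. The gene was chosen after its values were seen, and it did not pass the threshold.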
